A study of Mus musculus with 64 samples.

Results

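Acaa1b, a gene for a peroxisomal 3-ketoacyl-CoA thiolase, and 6 further genes of peroxisomal fatty acid oxidation were followed in 2 brain regions of mice with an Arg87Cys knock-in of Cyfip2, the frontal cortex and the hippocampus. The 7 members were the rows of the deposited table that mapped to Abcd2, Abcd3, Acox3, Ehhadh, Hsd17b4, Acaa1a and Acaa1b, among 18432 genes in all, and every one of them passed the filter on low values in every comparison. The set was built around Acaa1b, which was chosen by its difference between knock-in (KI) and WT cortex at postnatal week (PWK) 14. For all 7 members the KI and WT values at PWK 14, in both regions, are therefore given as a description without a test, and the tests concern PWK 1, 7 and 28, the WT ages and the WT regions. KI mice carried 1 Arg87Cys allele of Cyfip2, which encodes a subunit of the actin-regulating WAVE complex, and were compared with WT littermates on the C57BL/6N background. Both regions were taken from each mouse at PWK 1, 7, 14 and 28, with 4 mice for each age and genotype, which gave 64 libraries in 16 groups. The allele is constitutive, so every cell of a KI mouse carried it. The mice of the different ages were different animals, and surviving KI mice were sampled at the later ages, when the study describes lethality in this line. Each value is a DESeq2-normalized estimated count of a gene in a library, and group values are mean ± SD with n = 4.

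Peroxisomes shorten very-long-chain and branched fatty acids that mitochondria do not take up directly. ABC transporters of the peroxisomal membrane import the acyl-CoA esters, an acyl-CoA oxidase carries out the first oxidation and releases hydrogen peroxide, a bifunctional enzyme hydrates and dehydrogenates the product, and a thiolase removes acetyl-CoA. Rodents carry a pair of peroxisomal 3-ketoacyl-CoA thiolase genes, Acaa1a and Acaa1b, and several genes of the pathway are known in liver as targets of the lipid-sensing nuclear receptor PPAR alpha. In the brain the pathway is known from inherited peroxisomal disorders, in which very-long-chain fatty acids accumulate.

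In WT mice, 7 or 8 of 8 hippocampal neuron markers and 7 or 8 of 9 cortical neuron markers were higher in their own region at each age by limma, and none was called in the opposite direction. Cyfip2 itself was lower in KI than in WT cortex at PWK 28 (log2 difference -0.44 ± 0.09 SE, adjusted p = 0.0058) and was not called in the other 7 comparisons of genotype, so its level does not check the labels of a heterozygous missense allele. KI hippocampus replicate 1 at PWK 14 stood apart: its root mean square log2 distance from the other 3 libraries of its group was 0.486, against at most 0.343 in any other library, and the astrocyte gene Gfap was at 131431 in it and at 40059 to 47169 in those 3. At PWK 14 in hippocampus, the differences of Acaa1b, Abcd2, Abcd3 and Hsd17b4 are given with and without it. So is the number of other peroxisomal genes called, and the other results there include it.

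The thiolase genes lie on the same chromosome, 182582 bases apart. In GENCODE vM21 (GRCm38), Acaa1b (ENSMUSG00000010651) spans chr9:119148023-119157093 on the minus strand and Acaa1a (ENSMUSG00000036138) spans chr9:119339676-119350299 on the plus strand. Their coding sequences, of 1275 bases each in Acaa1a-201 and Acaa1b-201, were identical at 1231 positions (96.5%). Of the 1659 stretches of 31 bases in Acaa1b-201, 758 (45.7%) also occurred in an Acaa1a transcript, so that a quantifier has to divide the fragments that fall wholly in them. The 90 coding bases with the most differences, coding positions 460 to 549 in both, are shown because reads there tell the paralogs apart. Capitals mark the 13 bases that differ.

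Acaa1a-201: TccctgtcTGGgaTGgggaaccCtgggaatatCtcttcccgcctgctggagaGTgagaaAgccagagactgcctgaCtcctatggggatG
Acaa1b-201: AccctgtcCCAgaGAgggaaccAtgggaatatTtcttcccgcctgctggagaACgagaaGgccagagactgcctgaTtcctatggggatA

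The 250 bases before the RefSeq starts (GRCm38.p6) of the paralogs are shown next because the pair differed in KI cortex, as described below. RefSeq promoter entries were found for 5 of the 7 members. Capitals mark exact matches, on either strand, to the letters CCAAT or GGGCGG. The Acaa1b sequence is chr9:119157094-119157343, minus strand, and the Acaa1a sequence is chr9:119341044-119341293, plus strand. The Acaa1a sequence lies within the GENCODE span of that gene given above, and within Myd88 on the minus strand (chr9:119335934-119341411).

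Acaa1b: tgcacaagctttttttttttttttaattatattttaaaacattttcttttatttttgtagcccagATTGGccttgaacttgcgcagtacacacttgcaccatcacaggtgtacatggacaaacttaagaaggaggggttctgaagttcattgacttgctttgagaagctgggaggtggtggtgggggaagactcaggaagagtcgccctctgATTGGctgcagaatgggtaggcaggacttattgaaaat
Acaa1a: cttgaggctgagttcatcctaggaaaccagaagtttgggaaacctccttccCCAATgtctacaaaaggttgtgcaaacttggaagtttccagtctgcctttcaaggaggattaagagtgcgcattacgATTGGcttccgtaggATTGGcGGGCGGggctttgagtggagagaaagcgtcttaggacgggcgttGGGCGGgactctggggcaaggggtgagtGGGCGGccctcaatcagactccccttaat

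The Acaa1b sequence had a GC content of 41.6% and 2 CpG dinucleotides, whereas that of Acaa1a had 53.6% and 10, against medians of 52.4% and 6 over 32536 distinct promoters. Acaa1b held 2 matches to CCAAT and none to GGGCGG, and Acaa1a held 3 of each. CCAAT occurred in 33.8% and GGGCGG in 33.0% of those promoters. The letters AGGTCA, a nuclear receptor core site, occurred in 14.0% of promoters, a direct repeat of them with 1 base between, which holds the core site itself, in 0.0338%, and TGACGTCA in 1.56%. None of the 3 was found in the 250 bases of Acaa1b, Acaa1a, Acox3, Ehhadh or Abcd3.

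Acaa1b was low in WT brain and was high in the cortex of adult KI mice at PWK 14 and 28. At PWK 14 the 4 KI cortex libraries were at 146, 230.5, 78.8 and 100.1 and the WT libraries at 10.5, 14.6, 7.13 and 7.48. The lowest KI library was more than 5 times the highest WT library. The means were 139 ± 67.2 in KI and 9.92 ± 3.45 in WT, a log2 difference of 3.61. This is the contrast by which the gene was chosen, in which 5.18% of 18367 genes were called and 14.2% had KI and WT libraries that did not overlap.

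The PWK 28 mice, which took no part in that choice, had the same pattern in cortex. There the KI libraries were at 234, 152, 295 and 150.4 and the WT libraries at 11.5, 12.9, 9.83 and 12.3. The groups did not overlap. The means were 208 ± 69.9 in KI and 11.6 ± 1.32 in WT. The log2 difference was 3.99 ± 0.25 SE (limma, adjusted p = 4.3e-05), in a comparison in which 22.2% of 18387 genes were called. The members were chosen with earlier results of these data known, so this test is not an independent check of the choice.

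No such difference was detected in cortex at the earlier ages. At PWK 1 the KI libraries were at 13.7 to 19.4 and the WT libraries at 14.1 to 26.5 (log2 difference -0.20 ± 0.26 SE, adjusted p = 0.96). At PWK 7 they were at 7.20 to 19.3 and 13.3 to 24.8 (log2 difference -0.39 ± 0.34 SE, adjusted p = 0.85). The groups overlapped at both ages, and both means were lower in KI than in WT.

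In hippocampus Acaa1b stayed low in every group. At PWK 28 the KI libraries were at 15.6, 13.6, 14.4 and 12.9 and the WT libraries at 9.30, 15.9, 16.2 and 1.83, so that the KI values lay within the range of the WT values (log2 difference 0.65 ± 0.52 SE, adjusted p = 0.44). At PWK 14 the KI libraries were at 8.37 to 17.3 and the WT libraries at 1.85 to 11.5, with overlap and a log2 difference of 1.28, or 1.33 without KI replicate 1. At PWK 1 and 7 the log2 differences were -0.28 ± 0.47 and 0.51 ± 0.53 SE, with adjusted p of 0.97 and 0.91. The KI difference at PWK 28 was smaller in hippocampus than in cortex (interaction, hippocampus minus cortex, -3.34 ± 0.61 SE on the log2 scale, adjusted p = 0.0046). Of 18413 genes, 4.57% were called in that interaction.

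Among the 16 groups, KI cortex at PWK 28 and at PWK 14 came first and second with overlapping libraries. The other 14 group means lay between 5.20 and 19.0, and the highest library among their 56 was at 26.5, below the lowest of the 8 adult KI cortex libraries at 78.8. In the order of those 14 means, the libraries of each group overlapped those of the next. In WT cortex Acaa1b went from 18.7 ± 4.80 at PWK 7 to 11.6 ± 1.32 at PWK 28, without overlap but also without a call (log2 difference -0.62 ± 0.28 SE, adjusted p = 0.13). Gfap, an intermediate filament gene of reactive astrocytes, was also higher in adult KI cortex. It was at 4322 to 14031 in those 8 libraries and at 1675 to 4062 in the 16 WT cortex libraries. Its log2 differences by limma were 1.56 ± 0.27 SE at PWK 14 (adjusted p = 0.011) and 1.52 ± 0.23 SE at PWK 28 (adjusted p = 0.0015). Within KI cortex, Gfap was highest in replicate 1 at both ages, and Acaa1b in replicate 2 at PWK 14 and replicate 3 at PWK 28. In hippocampus, where Acaa1b was not called at PWK 28, Gfap differed by 2.00 ± 0.08 SE (adjusted p = 3.3e-07). The astrocyte list as a whole did not go one way in cortex: at PWK 14, 2 of its 12 markers were higher and 1 lower, with sums of 168437 to 194819 in KI and 173701 to 204606 in WT, and at PWK 28, 2 were higher and 3 lower. The part of astrocytes in the result for Acaa1b was not tested. In bulk tissue, more cells that express a gene and more RNA of it per cell cannot be told apart.

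**Figure D1:**
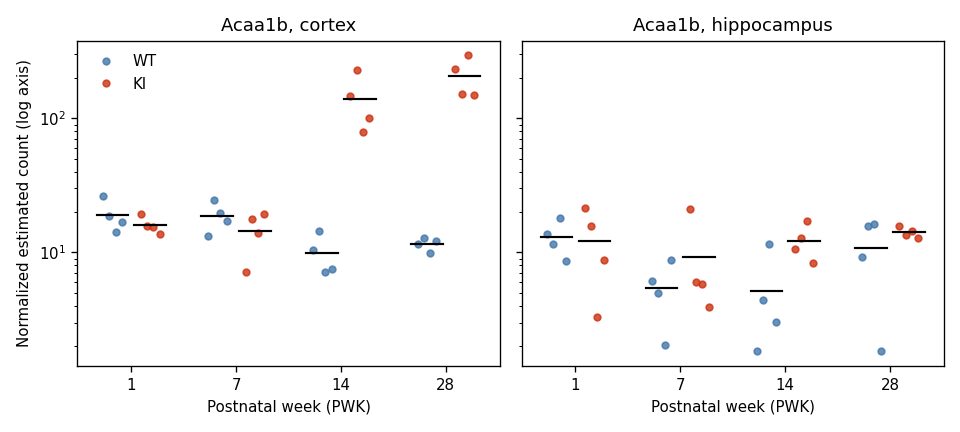
Acaa1b in each library (normalized estimated count, log axis) by postnatal week in cortex and hippocampus, with WT in blue, KI in red and a black bar at each group's mean. The 8 KI cortex libraries of PWK 14 and 28 sit between 78.8 and 295, and all 56 other libraries sit at or below 26.5.

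The paralog Acaa1a did not share this pattern. At PWK 28 in cortex it was at 1575 to 2129 in KI and at 1850.0 to 1968 in WT (log2 difference 0.00 ± 0.09 SE, adjusted p = 0.99), and at PWK 14 at 1844 to 1915 in KI and 1762 to 1919 in WT, with overlap both times. Acaa1b made up 0.609% ± 0.0789 of the summed values of the thiolase pair in WT cortex at PWK 28 and 9.68% ± 2.48 in KI cortex, and 0.544% ± 0.205 and 6.83% ± 3.10 at PWK 14. When both genes were summed before the log, the KI difference in cortex was 0.13 at PWK 14 and 0.14 ± 0.09 SE at PWK 28 (adjusted p = 0.30). The rise of Acaa1b was thus small beside the level of Acaa1a, and fragments divided between the paralogs could not be followed in these values.

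The last 224 bases of the Acaa1b gene overlap Dlec1 on the opposite strand, and the strand setting of the counting is not given in the sources used here. Acaa1a overlaps Myd88 and Slc22a14, also on the opposite strand. Dlec1 was at 84.7 to 180.2 in KI and 81.4 to 158 in WT cortex at PWK 28 (log2 difference 0.25, adjusted p = 0.58). Of the 13 other measured genes within 250 kb of the thiolase pair, a list drawn up after values were seen, 3 were higher and 2 lower in KI cortex at PWK 28, where 22.2% of all genes were called, and the log2 differences of all 13 lay between -0.66 and 0.82.

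Among the 5 genes whose values followed Acaa1b most closely were Top1mt, Aff1, Atp2c2 and Kctd6. Likeness was the Pearson correlation over the 64 libraries of log2 values after subtraction of the WT mean of the same age and region, among 14080 genes. It was 0.86 for Top1mt, a mitochondrial topoisomerase, 0.86 for Aff1, a transcription elongation scaffold, 0.85 for Atp2c2, a Golgi calcium and manganese pump, and 0.83 for Kctd6. The libraries include those of PWK 14 by which Acaa1b was chosen, so the ranking is a description. The points share groups, and the Spearman coefficients for these 4 were lower, at 0.46 to 0.61. In KI cortex, Atp2c2 differed from WT by 3.09 and 3.35 on the log2 scale at PWK 14 and 28, close to Acaa1b, but in hippocampus by 0.96 and 1.10. The other 6 members ranked far lower, with Pearson coefficients from -0.09 for Abcd2 to 0.35 for Abcd3.

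The importers Abcd2 and Abcd3, half-transporters for acyl-CoA esters, were higher in KI hippocampus at PWK 28. Abcd2 (ENSMUSG00000055782, chr15:91145871-91191799), known for very-long-chain and polyunsaturated substrates, was at 1179, 1076, 1006 and 1138 in KI and at 809, 829, 765 and 758 in WT. The KI libraries lay above all WT libraries, and the log2 difference was 0.48 ± 0.07 SE (adjusted p = 9.2e-04). Abcd3 (ENSMUSG00000028127, chr3:121758774-121815302), known for branched-chain and dicarboxylic substrates, was at 2864, 2714, 2685 and 2717 in KI and at 2358, 2328, 2417 and 2447 in WT. These groups did not overlap either, and the log2 difference was 0.20 ± 0.04 SE (adjusted p = 0.0099). In hippocampus at PWK 28, 15.8% of 18389 genes were called.

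In cortex at PWK 28 neither importer was called. Abcd3 was at 2477, 2182, 2447 and 2285 in KI and at 2069, 1928, 2078 and 2164 in WT, without overlap, but its log2 difference of 0.19 ± 0.06 SE missed the threshold (adjusted p = 0.055), and passed it without KI replicate 2 (adjusted p = 0.024). Abcd2 was at 1229 to 1516 in KI and 1240.2 to 1549 in WT, with overlap (log2 difference -0.05 ± 0.09 SE, adjusted p = 0.70). For Abcd2 the KI difference was larger in hippocampus than in cortex by 0.53 ± 0.11 SE (interaction, adjusted p = 0.011), whereas for Abcd3 the interaction was 0.01 ± 0.07 SE (adjusted p = 0.95). Abcd2 and Acaa1b thus differed between regions in opposite directions at PWK 28.

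At PWK 14, given as a description, Abcd2 in hippocampus was at 1567, 1043, 941 and 1102 in KI and at 873, 800.1, 813 and 952 in WT. The highest value was that of replicate 1, the library that stood apart, and the lowest KI library lay below the highest WT library. The log2 difference was 0.41, or 0.26 without that library. Abcd3 was at 3076, 2545, 2836 and 2651 in KI and at 2297, 2285, 2338 and 2222 in WT, without overlap, with a log2 difference of 0.28, or 0.23 without it. In cortex at PWK 14 both transporters overlapped, with log2 differences of -0.03 and -0.01.

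Some glial markers were higher in KI hippocampus as well, where markers of other cell types were called too. At PWK 28, 6 of 12 astrocyte markers were higher in KI and none lower, and their summed level was 234890 to 271000.0 in KI and 173143 to 185529 in WT. Of 12 microglia markers 9 were higher and none lower, with sums of 17018 to 20761 against 14028 to 14830. Of 9 endothelial and mural markers 3 were higher and none lower. Of 10 neuron markers 3 were higher and 1 lower, and of 10 oligodendrocyte markers 2 were higher and none lower. None of 9 choroid plexus and ependyma markers was called, and over all genes 15.8% were. At PWK 14 the astrocyte sums were 246109 to 345566 in KI and 173676 to 202328 in WT, with 3 of 12 higher, and no microglia marker was called by limma (3 at an unadjusted p under 0.05), with sums of 13446 to 44334 against 12159 to 14518. Of 8 hippocampal neuron markers at PWK 14, 4 were lower in KI hippocampus and none higher. Of 10 neuron markers 1 was higher and 1 lower, and of 9 cortical neuron markers 1 was higher and 3 lower. Of 10 oligodendrocyte markers 1 was higher and none lower. Over all genes at that age, 15.6% were called and 5780 of 18405 had an unadjusted p under 0.05. In cortex at PWK 28, where Acaa1b rose and Abcd2 did not, 2 astrocyte markers were higher and 3 lower, the astrocyte sums overlapped (168964 to 190856 in KI, 159318 to 187251 in WT), and 1 microglia marker was higher. Of all genes, 22.2% were called in that comparison. The summed choroid plexus and ependyma markers of WT cortex at PWK 28 ranged from 559 to 21784, against 525 to 1174 in KI. No marker of these lists was at 0 in all libraries of a comparison. The part of these cells in the differences of the members was not tested.

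**Figure D2:**
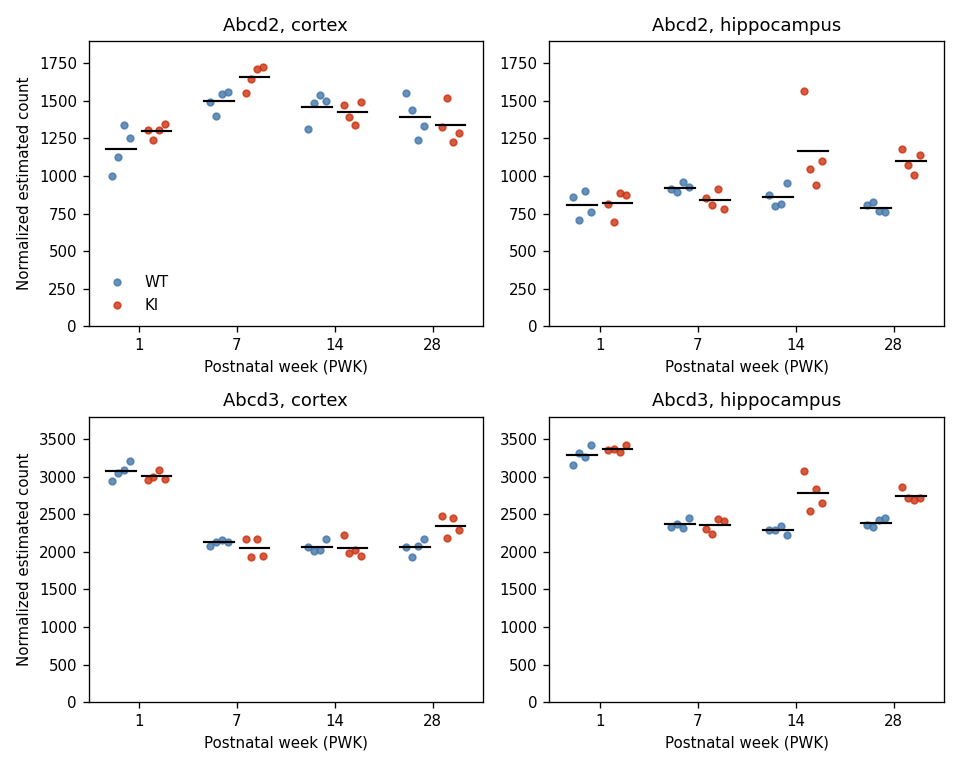
Abcd2 (top) and Abcd3 (bottom) in each library (normalized estimated count, axis from 0) by postnatal week, in cortex (left) and hippocampus (right), with WT in blue, KI in red and a black bar at each group's mean. At PWK 28 in hippocampus the KI libraries lie above the WT libraries for both genes, and at PWK 1 Abcd3 is higher than at any later age in WT.

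The enzymes between import and thiolysis were not called between genotypes at PWK 28. Acox3 (ENSMUSG00000029098, chr5:35583040-35615352), an acyl-CoA oxidase for branched-chain substrates, was at 1027 to 1308 in KI and 949.9 to 1094 in WT hippocampus (log2 difference 0.15 ± 0.08 SE, adjusted p = 0.23) and differed by 0.05 ± 0.08 SE in cortex (adjusted p = 0.68). Ehhadh (ENSMUSG00000022853, chr16:21761287-21787807), the L-bifunctional enzyme, was at 92.3 to 126 in KI and 84.0 to 108 in WT hippocampus (log2 difference 0.16 ± 0.15 SE, adjusted p = 0.53) and differed by -0.03 ± 0.17 SE in cortex (adjusted p = 0.91). Hsd17b4 (ENSMUSG00000024507), the D-bifunctional enzyme, was at 1622 to 1820 in KI and 1645 to 1682 in WT hippocampus (log2 difference 0.09 ± 0.05 SE, adjusted p = 0.28) and differed by 0.01 ± 0.06 SE in cortex (adjusted p = 0.94). At PWK 14 in hippocampus, Hsd17b4 replicate 1 of KI was at 2220 and the other 3 at 1614 to 1675, and its log2 difference from WT was 0.15, or 0.04 without that library. Acox3 and Ehhadh overlapped between genotypes at PWK 14 in both regions, with log2 differences from -0.08 to 0.12.

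Over the set, 1 of 7 members was called in cortex at PWK 28 and 2 of 7 in hippocampus, all higher in KI, where 22.2% and 15.8% of all genes were called. The median log2 difference of the members was 0.01 in cortex and 0.16 in hippocampus, against 0.00 over all genes tested in each. At PWK 14, 1 member in each region, Acaa1b in cortex and Abcd3 in hippocampus, had KI libraries above all WT libraries; 23.8% of all genes in hippocampus had groups that did not overlap, and 15.6% of 18405 genes were called there. At PWK 1 and 7 none of the 7 members was called by limma in either region, and at an unadjusted p under 0.05 there were none at PWK 1 and 1 in each region at PWK 7, Abcd2 both times. Over all genes, 0.00546% and 0.00545% were called in cortex at PWK 1 and 7, and 0.0109% and 0.0218% in hippocampus. Abcd2 at PWK 7 was higher in KI cortex (log2 difference 0.15 ± 0.05 SE, adjusted p = 0.48) and lower in KI hippocampus (-0.14 ± 0.06 SE, adjusted p = 0.80), with an interaction of -0.29 ± 0.08 SE (adjusted p = 0.65). In the interaction, 0% of all genes were called at PWK 1 and 0.00543% at PWK 7, and no member was.

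**Figure D3:**
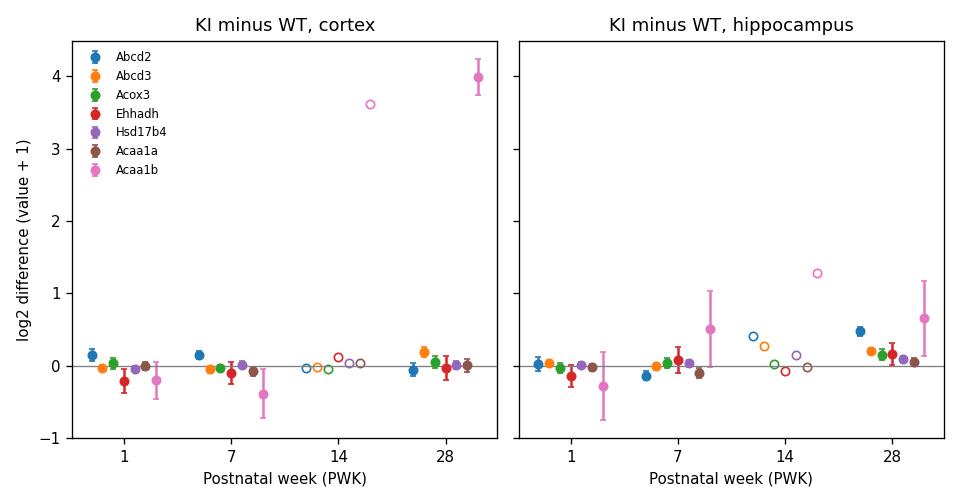
Difference between KI and WT of the 7 members (log2 of value + 1) by postnatal week in cortex and hippocampus, with bars of 1 SE for the tested ages and open points without error for PWK 14, the age by which Acaa1b was chosen. Acaa1b in cortex stands at 3.61 and 3.99 at PWK 14 and 28, while the other 6 members lie within 0.5 of 0 throughout.

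In WT mice the members covered a wide range of levels. Per kb of the longest coding transcript, PWK 28 cortex held 1080 ± 29.8 normalized estimated counts of Acaa1a, 604 ± 17.2 of Hsd17b4, 590.4 ± 28.1 of Abcd3, 312 ± 19.8 of Acox3, 251 ± 24.0 of Abcd2, 35.1 ± 3.82 of Ehhadh and 6.88 ± 0.782 of Acaa1b. Hsd17b4 and Abcd3 did not differ beyond their spread in this order. In KI cortex at that age Acaa1b reached 123 ± 41.4 per kb, above Ehhadh and below Abcd2. Acaa1a was thus the main thiolase transcript of the pair in every group.

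Between PWK 1 and 7 of WT mice most members were called, as were most genes. In cortex 4 of 7 were higher at PWK 7 and 1 was lower, and in hippocampus 4 were higher and 3 lower, where 65.3% and 61.3% of all genes were called. Abcd3 fell by 0.53 ± 0.04 SE in cortex (adjusted p = 3.2e-07) and by 0.47 ± 0.04 SE in hippocampus (adjusted p = 1.4e-06) on the log2 scale, from 3075 ± 109.6 to 2125 ± 35.2 in cortex. Acaa1a rose by 0.44 ± 0.05 and 0.37 ± 0.05 SE (adjusted p = 5.8e-06 and 4.6e-05), and Acox3 by 0.61 ± 0.07 and 0.36 ± 0.07 SE (adjusted p = 1.3e-05 and 0.0010). The oxidase and the main thiolase thus rose while one importer fell, in both regions.

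Ehhadh, in turn, rose by 0.88 ± 0.18 SE in hippocampus (adjusted p = 0.0012), from 48.8 to 58.8 at PWK 1 to 72.9 to 128 at PWK 7, and by 0.46 ± 0.17 SE in cortex (adjusted p = 0.030). Hsd17b4 fell by 0.20 ± 0.04 SE in hippocampus (adjusted p = 0.0011) and was not called in cortex. Abcd2 rose by 0.35 ± 0.08 SE in cortex (adjusted p = 0.0023) and by 0.20 ± 0.08 SE in hippocampus (adjusted p = 0.037), where the groups overlapped. Acaa1b fell by 1.19 ± 0.40 SE in hippocampus (adjusted p = 0.023), from 13.0 ± 3.92 to 5.46 ± 2.80, with overlap, and was not called in cortex. Single libraries decided 3 of these calls by limma. Ehhadh in cortex was lost without replicate 3 or 4 of either age (adjusted p from 0.055 to 0.098), Acaa1b in hippocampus without PWK 1 replicate 1 or 3 or PWK 7 replicate 3 (0.053 to 0.071), and Abcd2 in hippocampus without PWK 1 replicate 2 or 4 or PWK 7 replicate 1, 3 or 4 (0.064 to 0.10).

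From PWK 7 to 28, 1 of 7 WT members was called in each region, where 22.2% of all genes in cortex and 14.7% in hippocampus were. Acox3 fell by 0.23 ± 0.05 SE in cortex (adjusted p = 0.011), and Abcd2 fell by 0.22 ± 0.05 SE in hippocampus (adjusted p = 0.017), a call lost without PWK 28 replicate 4 (adjusted p = 0.054). Over this interval Abcd2 went from 923 ± 29.0 to 790.2 ± 34.1 in WT hippocampus and from 839 ± 57.7 to 1100 ± 75.7 in KI hippocampus. The WT mice of PWK 28 are the group against which the KI mice of that age were compared. The change with age in KI mice, and the part of the WT fall in the KI difference, was not tested.

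Abcd2 was lower in WT hippocampus than in WT cortex at every age, and the log2 difference was -0.55 ± 0.10, -0.70 ± 0.05, -0.76 ± 0.07 and -0.81 ± 0.07 SE in order of age (adjusted p from 8.0e-07 to 0.0012). Of the 7 members, 2, 4, 3 and 3 were called between the WT regions at PWK 1, 7, 14 and 28, against 34.7%, 40.8%, 34.6% and 37.8% of all genes. Acox3 was also lower in hippocampus at PWK 7, 14 and 28, by 0.28 to 0.39 on the log2 scale, and Abcd3 was higher, by 0.15 to 0.21, a call lost at PWK 14 without any of 6 single libraries, replicates 1 to 3 of either region (adjusted p from 0.055 to 0.076). Ehhadh was lower in hippocampus at PWK 1 (-0.53 ± 0.15 SE, adjusted p = 0.018, or 0.052 without cortex replicate 2) and Acaa1b at PWK 7 (-1.70 ± 0.40 SE, adjusted p = 0.0050). Acaa1a and Hsd17b4 were not called between regions at any age. Both regions came from the same mice, and the labels do not say whether a replicate number marks a mouse, so these tests treat the libraries as separate samples.

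**Figure D4:**
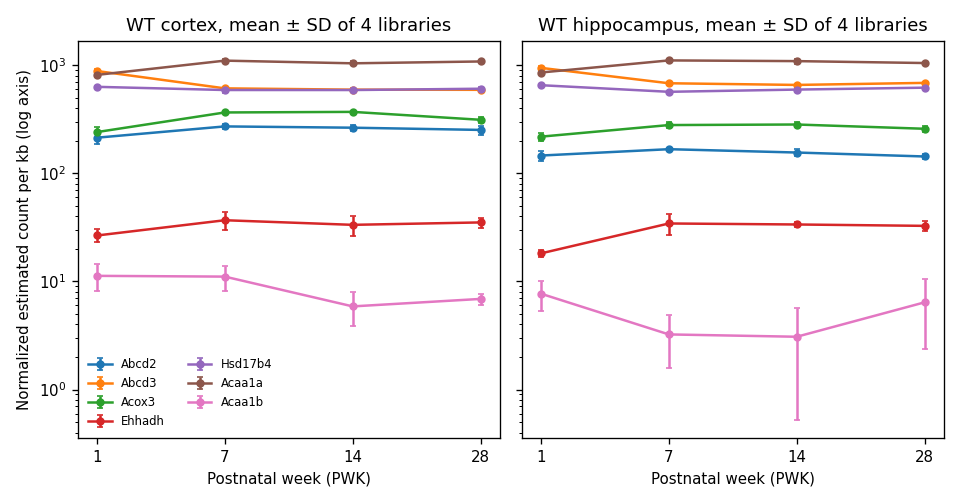
Level of the 7 members in WT cortex and WT hippocampus by postnatal week, as normalized estimated counts per kb of the longest coding transcript (log axis), with points at the mean and bars of 1 SD over 4 libraries. Acaa1a is the highest from PWK 7 on in both regions, Acaa1b the lowest at every age, and Abcd3 falls between PWK 1 and 7.

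Other genes of the organelle moved in KI mice in part. Of 52 measured peroxisomal genes outside the set, 2 were higher and none lower in KI cortex at PWK 14, 4 were higher and 3 lower in cortex at PWK 28, 2 were higher and 1 lower in hippocampus at PWK 14, and 5 were higher and 4 lower in hippocampus at PWK 28. These were 3.85%, 13.5%, 5.77% and 17.3% of the list, against 5.18%, 22.2%, 15.6% and 15.8% of all genes called in the same comparisons, so that no share stood clearly above its background. Their median log2 differences were -0.01, -0.03, 0.01 and 0.03. None of the 18 peroxins, the proteins that build the organelle, was called by limma in any of these 4 comparisons, and 2, 5, 5 and 4 of them had an unadjusted p under 0.05. Over all genes, 3786 of 18367, 6530 of 18387, 5780 of 18405 and 5584 of 18389 had such a p. The 2 calls in cortex at PWK 14 fell to 0 without KI replicate 2 or any of WT replicates 1 to 3, and the 9 in hippocampus at PWK 28 fell to 5, 4 and 3 without KI replicate 1, WT replicate 1 and WT replicate 4. At PWK 1 and 7 none of the 52 was called, while an unadjusted p under 0.05 was found for 4 and 7 cortical and for 2 and 0 hippocampal values. Over all genes it was found for 965 of 18311 and 1477 of 18358 in cortex, and for 1003 of 18361 and 1144 of 18390 in hippocampus.

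Cat, the catalase that degrades the hydrogen peroxide made by the oxidases, rose in KI cortex at PWK 28 by 0.46 ± 0.09 SE (adjusted p = 0.0057), in hippocampus at PWK 28 by 0.41 ± 0.08 SE (adjusted p = 0.0053) and in hippocampus at PWK 14 by 0.48 ± 0.07 SE (adjusted p = 0.0034), and its difference in cortex at PWK 14 was 0.36 ± 0.12 SE (adjusted p = 0.11). Prdx5, a peroxiredoxin of peroxisomes and mitochondria, rose in cortex at PWK 14 by 0.35 ± 0.07 SE (adjusted p = 0.019) and at PWK 28 by 0.88 ± 0.11 SE (adjusted p = 6.7e-04).

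Fatty acid activation and export went in both directions. Acsl1, a long-chain acyl-CoA synthetase, rose in cortex at PWK 14 and 28 (0.29 and 0.32) and in hippocampus at PWK 28 (0.26). Slc27a2, a very-long-chain acyl-CoA synthetase, fell by 0.62 in cortex at PWK 28, by 1.21 in hippocampus at PWK 14 and by 0.43 in hippocampus at PWK 28. Acbd5, a tether that binds acyl-CoA at the peroxisome, fell by 0.22 in cortex at PWK 28, and Crot, which exports shortened chains as carnitine esters, fell by 0.34 in cortex and 0.23 in hippocampus at PWK 28. Acot5, a peroxisomal acyl-CoA thioesterase, and Far1, which makes fatty alcohol for ether lipids, fell by 0.68 and 0.20 in hippocampus at PWK 28, where Hacl1 and Phyh of alpha-oxidation rose by 0.45 and 0.19. Scp2, a thiolase for branched chains, was not called in these 4 comparisons, with log2 differences from -0.17 to 0.12.

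**Figure D5:**
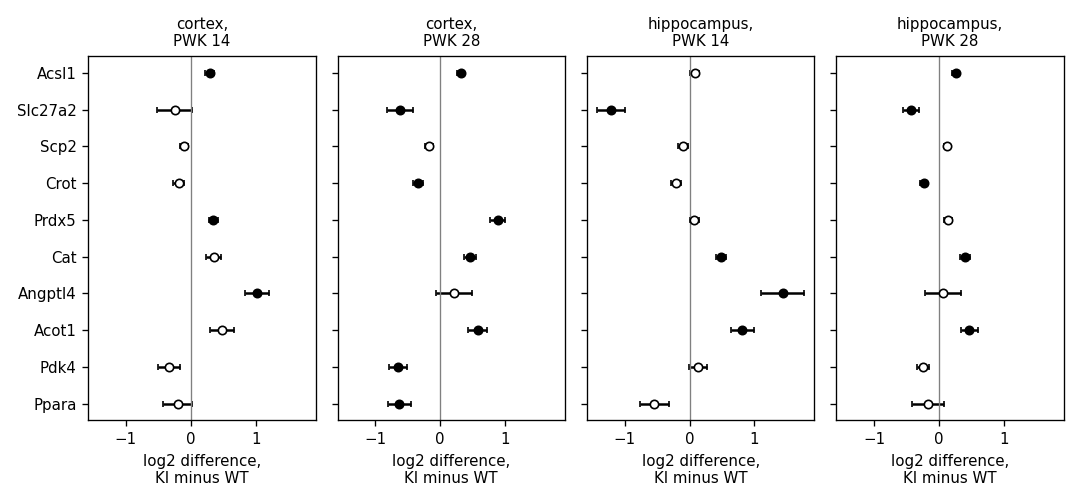
KI minus WT log2 difference (value + 1) with 1 SE for 10 genes that are not members, in cortex and hippocampus at PWK 14 and 28. Filled points passed an adjusted p of 0.05 and open points did not; Cat is filled in 3 of the 4 panels, and Ppara lies below 0 in all of them and is filled in 1.

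Ppara, the gene of PPAR alpha, was lower in KI cortex at PWK 28. It was at 63.3 ± 12.3 in KI and 97.5 ± 9.87 in WT cortex at PWK 28 (log2 difference -0.63 ± 0.18 SE, adjusted p = 0.031) and was not called in the other comparisons at PWK 14 and 28 (-0.54 to -0.17). Of 8 measured PPAR, RXR and coactivator genes, Ppargc1b also fell in cortex at PWK 28 (-0.50), Rxra fell in hippocampus at PWK 14 (-0.35) and Pparg rose in hippocampus at PWK 28 (0.91). Of 9 measured PPAR alpha targets outside peroxisomes, 2 were higher and 2 lower in cortex at PWK 28, where 22.2% of all genes were called. Ucp2, a mitochondrial uncoupling protein (0.58), and Acot1, a cytosolic thioesterase (0.58), rose. Pdk4, a kinase that inhibits pyruvate dehydrogenase (-0.65), was among those that fell. In cortex at PWK 14 Angptl4, a lipoprotein lipase inhibitor, was the 1 gene of this list called (1.02), where 5.18% of all genes were called. Of the 9, 6 had an unadjusted p under 0.05, as did 3786 of all 18367 genes tested. The median log2 difference of the 9 was 0.44, and their summed level was 1799 to 2423 in KI and 1398 to 1639 in WT. Angptl4 also rose with Acot1 in hippocampus at PWK 14 (1.43 and 0.81). Acot1 also rose in hippocampus at PWK 28 (0.47).

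Mitochondrial beta-oxidation, the parallel pathway for shorter chains, changed in single genes. Of its 19 genes limma called none in the cortex and 1 in the hippocampus at PWK 14 (5.18% and 15.6% of all genes), and 4 and 1 at PWK 28 (22.2% and 15.8%). For PWK 14 and then 28 in cortex, followed by the same ages in hippocampus, 2, 6, 8 and 3 had an unadjusted p under 0.05, and the median log2 differences were 0.02, -0.01, 0.20 and 0.06. Over all genes, 3786 of 18367, 6530 of 18387, 5780 of 18405 and 5584 of 18389 had such a p in the same order. At PWK 28 in cortex Eci1, Acadl and Acadm, an isomerase and 2 acyl-CoA dehydrogenases, fell by 0.72, 0.35 and 0.32 and Etfdh rose by 0.20. The genes called in hippocampus were Cpt1a, the carnitine transferase that gates mitochondrial entry, at PWK 14 (0.56) and Decr1, a reductase for unsaturated chains, at PWK 28 (0.36).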

How the data were processed

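RNA of frontal cortex and of hippocampus was sequenced from WT mice and from littermates with the Cyfip2 Arg87Cys knock-in. The authors quantified transcripts with Salmon and normalized the estimated counts with DESeq2. The submitters' processing notes name Salmon 0.11.2, DESeq2 1.19.11, R 3.6.0 and the GRCm38 build, while the study's methods name other versions of these tools. The deposited table holds 1 signal value per gene and library, a DESeq2-normalized estimated count that is not a whole number. Raw counts were not used here, so the depth of a library is unknown and no count model or counting interval was computed. The deposited values were already scaled between libraries, so their totals do not measure depth.

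Of 18432 gene IDs, 18420 matched a symbol in GENCODE vM21. Values were tested as log2(value + 1) with limma-trend (limma 3.58.1 in R 4.3.3), over genes with a mean of at least 1 in the libraries of the fit, with Benjamini-Hochberg adjustment over all genes tested. A gene was called at an adjusted p under 0.05, and a fold change on this scale understates that of genes with low values. The code was tested on simulated data. KI and WT were compared within each age and region, WT ages within region, and WT regions within age; the genotype by region interaction used the 16 libraries of an age. Samples were grouped by their titles.

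The members, pathway lists and marker lists were chosen with earlier results of these data known. Of the pathway lists, up to 4 called genes with the largest difference per list and comparison are named at PWK 14 and 28, and Scp2, Cat, Ppara and Pdk4 are always named; some genes that the rules select are not reported here. The 5 genes most like Acaa1b had the highest Pearson r among genes with a mean of at least 50. Neighbouring genes of Acaa1b, Dlec1 and the sequence motifs were chosen after values were seen. Alternatives were a pseudocount of 10, a minimum mean of 10, total-sum scaling, 1 fit of all 64 libraries, the replicate number as a block, sample quality weights, each library left out in turn and the sum of the thiolase paralogs.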

Additional observations from a re-analysis of the deposited data

Results flagged for a closer look

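At PWK 28 the difference between KI and WT was not the same in the 2 regions for a pair of members, by the test of the difference itself (limma interaction, hippocampus minus cortex). For Acaa1b it was -3.34 ± 0.61 SE on the log2 scale (adjusted p = 0.0046), and for Abcd2 it was 0.53 ± 0.11 SE (adjusted p = 0.011).

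In 4 of 112 groups of 4 libraries of the members, 1 library lay far from the other 3, where chance alone gives about 1 in 20. KI replicate 1 of cortex at PWK 7 had Hsd17b4 at 1662, with the others at 1564 to 1576. KI replicate 1 of hippocampus at PWK 14, the library that stood apart over all genes, had Hsd17b4 at 2220.3, with the others at 1614 to 1675. KI replicate 3 of hippocampus at PWK 28 had Hsd17b4 at 1622, with the others at 1802 to 1820. KI replicate 1 of hippocampus at PWK 7 had Acaa1b at 21.0, with the others at 3.91 to 6.02.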

How the results depend on the processing

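Of 31 calls of single members, 26 held under all 6 alternative settings and 25 with each library left out in turn, and no call changed its direction. The uncalled difference of Acaa1b between WT regions at PWK 28 went from -0.39 to 0.20 without hippocampus replicate 4. The cause of the changes below was not tested. With a pseudocount of 10 the KI against WT value of the members in cortex at PWK 14, that of Acaa1b, was 2.81, against 3.61. A minimum mean of 10 removed Acaa1b from the hippocampal comparisons of genotype at PWK 7 and 14 and of WT ages, where its call between PWK 7 and 1 was thereby lost, and from that of WT regions at PWK 14. The members called in cortex at PWK 28 were 2 in 1 fit of all 64 libraries and 2 with quality weights, against 1, and 1 to 2 with a library left out (2 without KI replicate 2). Those called between WT PWK 28 and 7 in hippocampus were 2 with a pseudocount of 10, a minimum mean of 10, total-sum scaling or weights and 0 in the fit of all libraries, against 1, and 0 to 2 with a library left out (0 without PWK 28 replicate 4, 2 without PWK 7 replicate 2). Those called between WT regions at PWK 1 were 4 with total-sum scaling, against 2, and 1 to 3 with a library left out (1 without cortex replicate 2). Of the other peroxisomal genes, the calls in cortex at PWK 14 were 7 in the fit of all libraries, against 2, and 0 to 3 with a library left out (0 without KI replicate 2 or WT replicate 1, 2 or 3, and 1 without WT replicate 4). In cortex at PWK 28 they were 11 with total-sum scaling and 19 in the fit of all libraries, against 7, and 5 to 10 with a library left out. In hippocampus at PWK 14 they were 5, 17 and 8 with total-sum scaling, the fit of all libraries and weights, against 3, and 3 to 5 with a library left out (5 without KI replicate 1 or 3). In hippocampus at PWK 28 they were 9, and 3 to 10 with a library left out (5 without KI replicate 1, 4 without WT replicate 1 and 3 without WT replicate 4).

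The labels do not tie a replicate number to a mouse. Same-numbered cortex and hippocampus libraries correlated at -0.0732 to 0.462 in their deviations from the group means, over 0.1 in 17 of 32 pairs, and KI and WT libraries at -0.293 to 0.376, over 0.1 in 10 of 32. With the replicate number as a block, 5 other peroxisomal genes were called in hippocampus at PWK 28, and 0 members between WT PWK 28 and 7 in hippocampus. The block also ended the calls of Acaa1b between WT PWK 7 and 1 in hippocampus (adjusted p = 0.054) and of Abcd3 between WT regions at PWK 14 (adjusted p = 0.055), both by limma. Raw depth is unknown, so the precision of low values such as those of Acaa1b in WT rests on the spread of 4 libraries.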
